A study of Mus musculus with 6 samples.

Results

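The region described here is the stretch of mouse chromosome 4 that lies more than 400 kb and up to 1 Mb upstream of the Wnt4 promoter, from 135832108 to 136432107 in the mm9 build. It was chosen by distance alone. All fragment ends listed between these limits were taken, which gave 1648 of the 369081 ends listed for the chromosome. The assay was 4C-seq with the Wnt4 promoter as its target. It fixes chromatin, cuts and religates it, and counts the fragments joined to 1 chosen fragment, the viewpoint. The libraries came from BC44 and HC11, which the labels call mouse mammary epithelial cells, with 3 libraries per line. Both lines grew in RPMI1640 with 10% serum and insulin at 5 µg/ml, and HC11 also received EGF at 10 ng/ml, so the line and the growth factor cannot be told apart. The labels do not say if the 3 libraries of a line came from separate cultures, so p-values measure only the spread between these libraries, which may be technical. The files hold no expression values, and the lines could not be checked against marker genes.

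Wnt4 encodes a secreted signalling protein. In the mammary gland it acts downstream of progesterone and promotes side branching of the ducts. Enhancers reach a promoter by looping, usually within the same folded domain of the chromosome, and 4C signal falls with distance from the viewpoint. A read far away therefore stands for a rare ligation, and few fragment ends are caught in every library. The study concerned loops between Wnt4 and its enhancers, and its own calls used a window of 400 kb, which even if taken on each side of the viewpoint stops at the near edge of this region.

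The viewpoint was taken as the end with the most reads, at 136832108, a choice that rested on replicate 1. Replicate 1 of both lines stood apart there, with 40.5% and 44.3% of all reads at that 1 end against 0.134% to 0.466% in the other 4 libraries. Levels are therefore given as RPM, reads scaled to 1000000 reads more than 2 kb from the viewpoint, and the main line differences are also given for replicates 2 and 3 alone. The smallest and largest totals were 825498 and 1401717 reads in BC44 and 96690 and 1755373 in HC11, with HC11 replicate 2 the shallowest. Where 3 values are given for a line, they are in the order of its replicates 1, 2 and 3. The region itself held 62400, 54035 and 65950 reads in BC44 and 97735, 8531 and 61630 in HC11. A captured end (1 with at least 1 read) had a median of 42 to 62 reads in the BC44 libraries and of 10 to 81 in the HC11 libraries. PCR copies cannot be told from separate ligations, so intervals cover counting error only.

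The region holds 16 annotated genes, of which 8 are protein-coding. From the nearest to the farthest these are Ephb2, a receptor tyrosine kinase for ephrin-B ligands; 4930549C01Rik, which RefSeq now calls Tex46; Kdm1a, a demethylase of histone H3 also known as LSD1; Luzp1, a leucine zipper protein; 6030445D17Rik; Htr1d, a serotonin receptor; Hnrnpr, an RNA-binding protein; and Zfp46, a zinc finger protein. Lactbl1 lies between Ephb2 and 4930549C01Rik and is a lincRNA in the annotation used, while RefSeq lists it as protein-coding. It is not among the 8, and its 42 listed ends count as outside coding genes below. Ephb2, on the minus strand from 136203454 to 136391903, covers 188 kb and 514 of the 1648 listed ends (31.2%). Its start is its edge nearest to Wnt4.

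The sequences below are shown because each belongs to the end with the highest mean RPM in 1 of the 4 strongest 20 kb windows. PCR copies count as reads, so such an end need not be the one most often joined to the Wnt4 promoter. Each sequence runs from the DpnII site, in capitals, for 120 bases into the captured fragment, read from the mm9 sequence. The first, at chr4:136413243-136413362 on the plus strand, lies between genes, 21340 bp from Ephb2. The second, at chr4:136402412-136402531 on the minus strand, lies between genes, 10628 bp from Ephb2. The third, at chr4:136237098-136237217 on the minus strand, and the fourth, at chr4:136272946-136273065 on the plus strand, lie in introns of Ephb2.
End 419 kb upstream: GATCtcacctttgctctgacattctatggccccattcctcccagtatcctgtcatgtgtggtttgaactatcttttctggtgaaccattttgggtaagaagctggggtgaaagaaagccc
End 430 kb upstream: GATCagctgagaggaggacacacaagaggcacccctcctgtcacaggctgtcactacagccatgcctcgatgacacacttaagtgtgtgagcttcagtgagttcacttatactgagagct
End 595 kb upstream: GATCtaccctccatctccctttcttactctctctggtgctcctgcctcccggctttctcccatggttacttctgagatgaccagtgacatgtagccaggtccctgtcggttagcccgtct
End 559 kb upstream: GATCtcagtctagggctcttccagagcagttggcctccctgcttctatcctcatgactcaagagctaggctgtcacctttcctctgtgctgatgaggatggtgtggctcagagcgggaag

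The end 419 kb upstream was read in all 6 libraries, with 897, 315 and 661 RPM in BC44 and 771, 426 and 1005 RPM in HC11. The lines overlapped there. The end 430 kb upstream had 628, 0 and 0 RPM in BC44 and 30.1, 1844 and 836 RPM in HC11, and so was missed by 2 libraries. The end 595 kb upstream was high in 1 library only, with 129, 0 and 2249 RPM in BC44 and 193, 85.3 and 218 RPM in HC11. The end 559 kb upstream had 284, 77.8 and 558 RPM in BC44 and 1255, 1289.7 and 34.4 RPM in HC11. Each of the 4 ends made up 9.49% to 12.8% of the mean level of its window, so no window mean rested on 1 end alone. In single libraries an end could weigh more. The end 595 kb upstream gave 2249 of the 5556 RPM of its window in BC44 replicate 3. The end 430 kb upstream gave 1844 of 6374 RPM in HC11 replicate 2. GRHL and PGR, named in the study's title, are a transcription factor family and the progesterone receptor. The letters AACCNGGTT, searched for GRHL, were in none of these 4 sequences (N is any base). The letters ACANNNTGT, searched for PGR, were in 1, that of the end 430 kb upstream. Sites with other letters or spacing were not searched, so these counts cannot show whether GRHL or PGR sites are absent. Both motifs read the same on either strand, and both strands were searched; no printed sequence holds both. Among all 1648 ends listed in the region, 3 (0.182%) and 65 (3.94%) held the letters searched for GRHL and for PGR in their first 120 bases. Along the chromosome 0.0921% and 3.75% of 369078 ends did. The region's share for AACCNGGTT thus rested on 3 ends.

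A larger share of reads lay in this region in HC11 than in BC44. Of the reads beyond 2 kb, it took 7.60% (95% Wilson interval 7.54 to 7.65), 6.78% (6.73 to 6.84) and 7.18% (7.12 to 7.23) for BC44. It took 10.2% (10.1 to 10.2), 9.09% (8.91 to 9.28) and 10.1% (10.01 to 10.2) in HC11. Every HC11 library lay above every BC44 library. The means were 7.18% ± 0.408 (SD, n = 3) and 9.78% ± 0.594 (SD, n = 3), a ratio of 1.36 and a difference of 2.59 percentage points. A two-sided exact permutation test gave p = 0.1, the lowest value open to 3 libraries against 3, and 0.25 after Benjamini-Hochberg adjustment over the 5 measures compared between lines. With replicates 2 and 3 alone the difference was 2.61 points, without overlap. Over all reads, the viewpoint included, it was 2.09 points and the lines overlapped (exact permutation p = 0.3).

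The same order was found among upstream reads only. Of the reads 10 kb to 1 Mb upstream, the region took 19.1%, 15.5% and 15.5% in BC44 and 21.3%, 21.4% and 24.2% in HC11. The lines did not overlap (16.7% ± 2.05 against 22.3% ± 1.64, SD, n = 3, exact permutation p = 0.1, adjusted p = 0.25). Limiting the comparison to replicates 2 and 3 moved the difference from 5.57 to 7.25 points. Counted over captured ends instead, the difference was 1.65 points with overlap (exact permutation p = 0.7).

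The excess in HC11 was present both inside and outside the largest gene. Ends inside Ephb2 took 2.97%, 2.45% and 3.16% of the reads beyond 2 kb for BC44 and 4.37%, 3.76% and 3.89% in HC11. The rest of the region took 4.62%, 4.33% and 4.01% in BC44 and 5.78%, 5.33% and 6.19% in HC11. Neither set of ends overlapped between lines, and the differences were 1.14 and 1.45 points (exact permutation p = 0.1 each). This split was chosen after the data were seen.

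**Figure D1:**
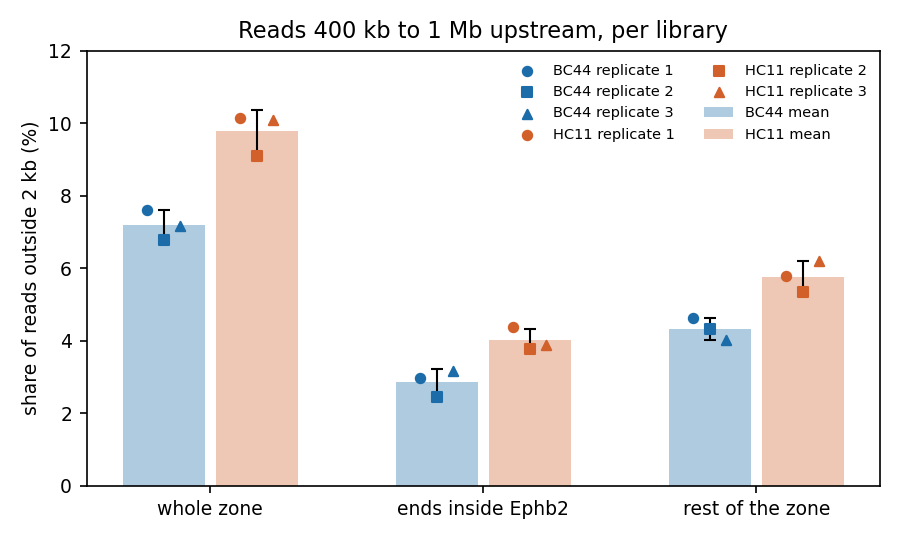
Share of the reads more than 2 kb from the viewpoint (vertical axis, percent) in the whole region, in its ends inside Ephb2 and in the rest, for each library (points), with the mean (bars) and SD (error bars, n = 3). The whole region took 6.78% to 7.60% in BC44 and 9.09% to 10.2% in HC11, without overlap.

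Reads were densest in the nearest 200 kb and then levelled off. Per listed end, BC44 had 66.4 RPM at 400 to 500 kb, 49.6 at 500 to 600 kb and 41.1 at 600 to 700 kb, and then 31.6 to 37.3 RPM in each 100 kb step out to 1 Mb. HC11 had 89.8, 82.3 and 57.5 RPM per end over the same 3 steps and then 40.2 to 44.01. The lines did not overlap in the 3 steps from 400 to 700 kb and overlapped in the 3 steps beyond. The largest upstream gap, at 500 to 600 kb and wholly inside Ephb2, was between 17627, 10866 and 16182 RPM in BC44 and 25981, 23342 and 24718 RPM in HC11. Its log2 ratio of line means (HC11 over BC44) was 0.73. Downstream of the viewpoint, the lines also did not overlap at 400 to 500, 500 to 600 and 700 to 800 kb. The log2 ratios there were 1.00, 0.40 and 0.95. At 600 to 700 kb downstream BC44 was higher, with overlap (-0.34). Separation near 400 kb was thus not particular to the upstream side. Reads 400 to 600 kb upstream made up 43.7% ± 5.62 (SD, n = 3) of the region's reads in BC44 and 48.3% ± 3.19 (SD, n = 3) in HC11, a difference within the spread (exact permutation p = 0.3, adjusted p = 0.5). BC44 replicate 2 was lowest at 37.4%, and without it the difference fell from 4.59 to 1.42 points.

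The 30 windows of 20 kb showed where the reads lay, and all 30 passed the filter of at least 10 reads in at least 3 libraries. Mean levels ranged from 1217 RPM to 5296 RPM. The 4 highest windows were those 400 to 420, 420 to 440, 580 to 600 and 540 to 560 kb upstream, the first pair in the gene-free stretch between Ephb2 and C1qb and the others inside Ephb2. Between 3 and 39 ends were captured per window and library. Over the 1001 windows tested along the chromosome with edgeR's quasi-likelihood method, 0.2% had an adjusted p under 0.05, and 0 of the 30 here did. At an unadjusted p under 0.05 there were 2 of 30, both higher in HC11, against 6.29% of all windows tested (1.7% higher in HC11 and 4.6% higher in BC44), so the total was near the background. DESeq2 also called 0 of 30, against 14 of the 1001 windows tested, and had 2 of the 30 at an unadjusted p under 0.05. Lines were fully separate in 6 of 30 windows, with HC11 above in each, whereas 13.3% of all windows tested were separate, 5.79% with HC11 above and 7.49% with BC44 above. The fitted log2 fold change (HC11 over BC44) was above 0 in 17 of 30 windows, against 43.6% of all windows tested, and its median was 0.18 here and -0.26 over all of them. With only the 101 windows within 1 Mb fitted, the medians were 0.11 here and 0.09 over all. Without HC11 replicate 1 both medians were lower, at -0.01 and -0.44. The standard error of a window's fold change ran from 0.39 to 0.89.

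**Figure D2:**
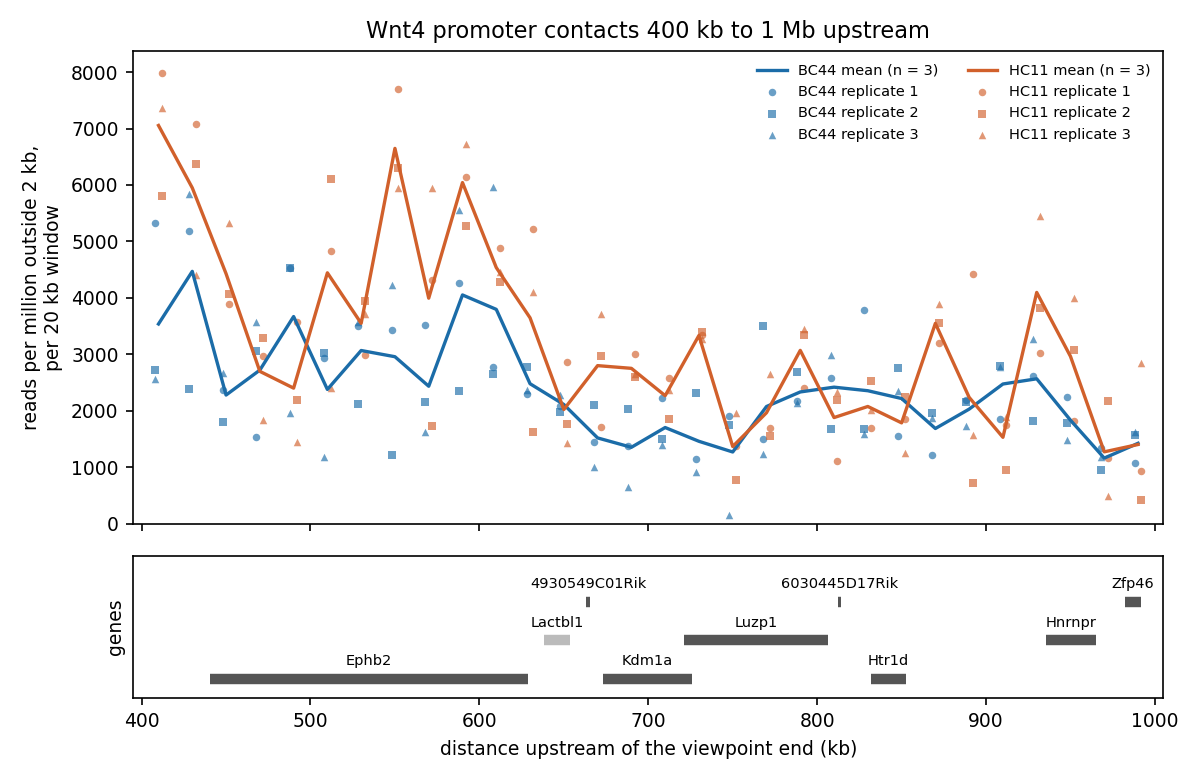
RPM in each 20 kb window (vertical axis) against the distance upstream of the viewpoint end in kb (horizontal axis), with 1 point per library and a line for the mean of each cell line (n = 3); bars below mark the coding genes and, in light grey, Lactbl1. Window means ran from 1217 to 5296 RPM over both lines, and the highest lay 400 to 440 kb upstream and inside Ephb2.

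The window 400 to 420 kb upstream (136412108 to 136432107), which holds no annotated gene, had 5326, 2724 and 2563 RPM in BC44 and 7986, 5809 and 7369 RPM in HC11. Each HC11 library exceeded each BC44 library, with a log2 fold change of 0.80 (with SE 0.39, edgeR adjusted p = 0.696). With captured ends in place of reads it was 0.17, and the captured ends, 33, 29 and 25 in BC44 and 27, 28 and 33 in HC11, overlapped. The next window outward, 420 to 440 kb upstream, had 5180.1, 2380.4 and 5849 RPM in BC44 and 7075, 6374 and 4400 RPM in HC11. There the lines overlapped (log2 fold change 0.21 with SE 0.39). Just inside the near limit of 400 kb the mean was thus 3538 RPM in BC44 and 7055 in HC11, while just outside it, 380 to 400 kb upstream, it was 6239 and 7432 RPM. At the far limit the window 980 to 1000 kb upstream had 1424 and 1403 RPM, and the window beyond it 1018 and 1368.

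The window 540 to 560 kb upstream (136272108 to 136292107), inside Ephb2, had the lowest unadjusted p. It had 3432, 1212 and 4230.1 RPM in BC44 and 7709, 6299 and 5938 RPM in HC11, without overlap (log2 fold change 0.97 with SE 0.41, edgeR adjusted p = 0.635). The window 720 to 740 kb upstream (136092108 to 136112107), where Luzp1 and Kdm1a overlap, had 1138, 2319 and 922 RPM in BC44 and 3344, 3389 and 3270.2 RPM in HC11. The HC11 libraries were close to each other and above every BC44 library (log2 fold change 0.93 with SE 0.60, edgeR adjusted p = 0.999). The window 580 to 600 kb upstream, also in Ephb2, had 4256, 2344 and 5556 RPM in BC44 and 6141, 5265 and 6722 RPM in HC11, with overlap (log2 fold change 0.36 with SE 0.40). With captured ends the fold changes of the windows 540 to 560 and 720 to 740 kb upstream were smaller, at 0.58 and 0.28.

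No window was higher in BC44 without overlap. The 3 windows with the lowest unadjusted p among those higher in BC44 overlapped between lines, and none had an unadjusted p under 0.05. The window 480 to 500 kb upstream, inside Ephb2, had 4528, 4527 and 1954 RPM in BC44 and 3570.3, 2196 and 1439 RPM in HC11 (log2 fold change -0.82 with SE 0.50, edgeR adjusted p = 0.999). The window 900 to 920 kb upstream had 1860.2, 2789.5 and 2774 RPM in BC44 and 1745, 949 and 1897 RPM in HC11 (log2 fold change -0.93 with SE 0.65, edgeR adjusted p = 0.999). The window 800 to 820 kb upstream, around the start of Luzp1, had 2582, 1678 and 2996 RPM in BC44 and 1114, 2196 and 2331 RPM in HC11 (log2 fold change -0.60 with SE 0.63, edgeR adjusted p = 0.999). With captured ends these 3 fold changes were 0.0708, 0.0296 and -0.12, so the direction of the first pair turned.

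By gene, Ephb2 had the highest level and the lowest unadjusted p of the region. It held 29730 RPM in BC44 replicate 1, 24547 in replicate 2 and 31632 in replicate 3, and 43702, 37592 and 38945 RPM in HC11. Every HC11 library lay above every BC44 library, at 28636 ± 3667 RPM (SD, n = 3) against 40079.7 ± 3209 RPM (SD, n = 3), a ratio of means of 1.40. The log2 fold change was 0.50 (with SE 0.16, unadjusted p = 0.00137, edgeR adjusted p = 0.186 over 462 coding genes), so Ephb2 did not pass. Its fold change was 0.13 (edgeR adjusted p = 0.780) where only the 27 genes within 1 Mb were fitted, 0.32 with replicates 2 and 3 alone, 0.38 without HC11 replicate 1 and 0.71 without BC44 replicate 3. Per listed end it had 55.7 RPM in BC44 and 78.0 in HC11. Ephb2 made up 36.2% to 44.1% of the region's reads in the BC44 libraries and 38.6% to 43.0% in the HC11 libraries, so its share within the region overlapped between lines.

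Kdm1a, whose product removes methyl groups from histone H3, had 3875, 5874 and 2168 RPM in BC44 and 7465, 7066.5 and 7572 RPM in HC11. Again the lines did not overlap, with a ratio of means of 1.85. The log2 fold change was 0.91 (with SE 0.38, unadjusted p = 0.0164, edgeR adjusted p = 0.910). It was 0.76 with replicates 2 and 3 alone and 1.42 without BC44 replicate 2. Where only genes within 1 Mb were fitted it was 0.57 (edgeR adjusted p = 0.447), and with captured ends in place of reads it was 0.53. The number of captured ends in Kdm1a, 38, 41 and 22 in BC44 and 41, 32 and 46 in HC11, overlapped between lines. Kdm1a and Luzp1 run toward each other and share 13 listed ends, whose reads count for both.

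Htr1d, the serotonin receptor gene 832 to 853 kb upstream, went the other way. It had 2585, 3810 and 2918 RPM in BC44 and 1692, 1663 and 1267 RPM in HC11, without overlap and with a ratio of means of 2.01 in favour of BC44. The log2 fold change was -1.01 (with SE 0.61, unadjusted p = 0.0985, edgeR adjusted p = 0.999). Where only genes within 1 Mb were fitted it was -1.33 (edgeR adjusted p = 0.0906), with replicates 2 and 3 alone also -1.33, and with captured ends in place of reads it was -0.16. Zfp46, at the far edge, had 559, 782 and 924 RPM in BC44 and 483, 416 and 545 RPM in HC11, also without overlap, but on 2 to 7 captured ends per library (log2 fold change -0.66 with SE 1.29).

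The remaining genes overlapped between lines. Hnrnpr had 2973, 2997 and 2073 RPM in BC44 and 2656, 4615 and 4390 RPM in HC11 (log2 fold change 0.54 with SE 0.51, edgeR adjusted p = 0.999). The short gene 4930549C01Rik, with 11 listed ends, had 382, 0 and 49.0 RPM in BC44 and 190.1, 1140.5 and 1413 RPM in HC11. Its log2 fold change of 2.80 had an SE of 1.57 (edgeR adjusted p = 0.999), and it rested on 0 to 2 captured ends per library. Luzp1 had 5512 to 11296 RPM in BC44 and 7919 to 11155 in HC11, and 6030445D17Rik stayed at 193 RPM or less in every library.

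Over the 8 coding genes, all of which passed the filter, edgeR gave none an adjusted p under 0.05, nor any of the 462 genes tested on the chromosome (0%). At an unadjusted p under 0.05 there were 2 of 8, Ephb2 and Kdm1a, both higher in HC11, against 4.55% of all genes (2.6% higher in HC11 and 1.95% higher in BC44). DESeq2 called 0 of the 8 and 6 of the 462 genes tested. It had 3 of the 8 at an unadjusted p under 0.05. The lines did not overlap in 4 of 8 genes, 2 in each direction, against 12.3% of all genes tested (3.9% with HC11 above and 8.44% with BC44 above). The fitted change was above 0 in 6 of 8 genes, against 47.8% of all. The median log2 fold change was 0.41 over the 8 genes and -0.06 over all 462, and 0.05 and 0.13 where only the 27 genes within 1 Mb were fitted.

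**Figure D3:**
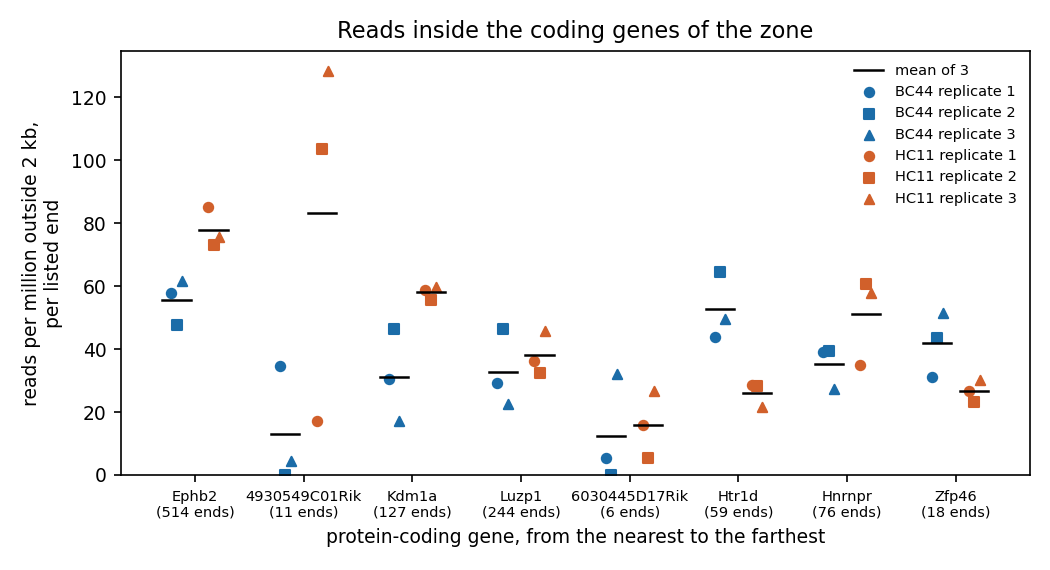
RPM per listed end (vertical axis) inside each coding gene, ordered from the nearest to the farthest, for each library (points) and as the mean of each line (short lines, n = 3). Ephb2 and Kdm1a lay higher in all HC11 libraries, Htr1d and Zfp46 in all BC44 libraries, and the other 4 genes overlapped.

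The region was then compared with its mirror, the 1579 listed ends 400 kb to 1 Mb downstream of the viewpoint. The upstream side was more contacted in every library. It had 46.1, 41.1 and 43.5 RPM per listed end in BC44 and 61.6, 55.2 and 61.2 in HC11, against 18.3, 17.1 and 18.1 downstream in BC44 and 22.4, 27.3 and 27.4 in HC11. The mean log2 ratio was 1.25 ± 0.152 (SD, n = 6), or 2.38-fold, and was above 0 in 6 of 6 libraries (exact sign-flip permutation p = 0.0313, the smallest that 6 libraries can give, adjusted p = 0.0469 over 3 measures). With captured ends in place of reads the log2 ratio was 0.87 (exact p = 0.0313). The higher share in HC11 was not shown to be particular to the upstream side. Of the reads on both sides at this distance, 71.9% ± 0.538 (SD, n = 3) lay upstream in BC44, as did 70.7% ± 3.22 (SD, n = 3) for HC11 (exact permutation p = 0.7, adjusted p = 0.875), a difference of -1.19 points. With replicates 2 and 3 alone it was -2.63 points, without overlap, and it was -2.94 without HC11 replicate 1 (exact permutation p = 0.1) and 0.229 without HC11 replicate 2.

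**Figure D4:**
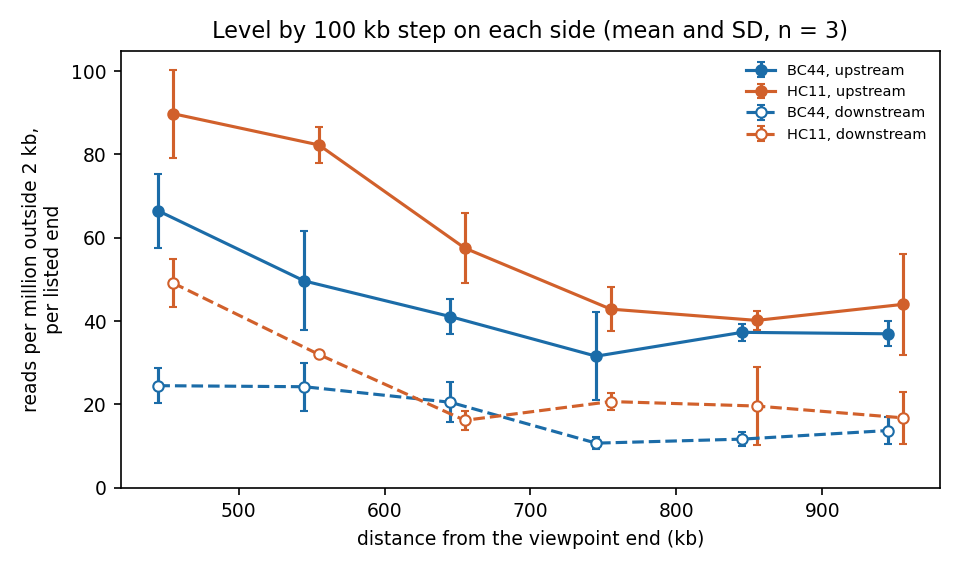
RPM per listed end (vertical axis) in 100 kb steps of distance from the viewpoint end (horizontal axis, kb), upstream (filled, solid) and downstream (open, dashed), as the mean and SD of each line (n = 3). The upstream means lay above the downstream means of the same line at every step, and fell from 66.4 to 37.0 in BC44 and from 89.8 to 44.01 in HC11.

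Position relative to genes was compared within libraries. Of the listed ends, 63.2% lay inside coding genes, and these took 62.0%, 71.2% and 63.2% of the region's reads in BC44 and 62.8%, 65.8% and 63.99% in HC11. The log2 ratio of reads per end inside against outside coding genes was 0.10 ± 0.222 (SD, n = 6), with 3 of 6 libraries above 0 (exact sign-flip permutation p = 0.375, adjusted p = 0.375). With captured ends the ratio was 0.18 and above 0 in 6 of 6 libraries (exact p = 0.0313). Captured ends were not corrected for distance, and Ephb2, in the near part of the region, holds 514 of the 1042 ends inside coding genes. For reads divided by each library's own distance background the ratio was -0.0111, with 2 of 6 libraries above 0 (exact sign-flip permutation p = 0.969). The 167 ends within 5 kb of the start of a coding gene were read less than the other 1481. They had 41.3, 17.2 and 41.3 RPM per end in BC44 and 40.2, 43.3 and 50.5 in HC11, against 46.6, 43.8 and 43.8 in BC44 and 64.02, 56.5 and 62.4 in HC11 for the others. The mean log2 ratio was -0.50 ± 0.463 (SD, n = 6), below 0 in 6 of 6 libraries (exact sign-flip permutation p = 0.0313, adjusted p = 0.0469). BC44 replicate 2 was lowest at -1.35, and without it the mean was -0.32. Most starts lie in the far part of the region. After each library's reads were divided by its own distance background the ratio was -0.09 (exact p = 0.906), with 4 of 6 libraries above 0, so the call was lost.

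Capture of single ends varied strongly between libraries. Of the 1648 ends, 397 (24.1%) had no read in any library, 346 were read in 1 library and 13 (0.789%) in all 6. In the downstream mirror 42.7% of ends had no read and 0 of 1579 were read in all 6. The 13 ends read in every library comprised 7 in Ephb2, 2 in introns of Kdm1a and 4 between genes, and 11 of them lay within 640 kb of the viewpoint. Of the 1648 listed ends, Ephb2 holds 514. The steps 400 to 500, 500 to 600 and 600 to 700 kb upstream hold 251, 300 and 274. The share of listed ends that were captured was 37.0%, 29.4% and 26.6% in BC44 and 36.7%, 25.7% and 35.3% in HC11. This share did not differ beyond the spread (30.99% ± 5.36 against 32.5% ± 5.99, SD, n = 3, exact permutation p = 1, adjusted p = 1). After thinning each library to 93823 reads the difference was 3.56 points, with overlap (exact permutation p = 0.4).

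A few ends were read in all 3 libraries of 1 line and in none of the other. There were 13 such ends for BC44 and 13 for HC11, each 0.789% of the region, against 0.487% and 0.581% of the ends 10 kb to 1 Mb away. In each line 6 of the 13 lay in Ephb2, which holds 514 of the 1648 listed ends. These counts are too small to read as a concentration there. The end at 136304964, in an Ephb2 intron, had 304, 959.95 and 190.4 RPM in BC44 and 0 in each HC11 library. The end at 136421619, between Ephb2 and C1qb, had 261, 330.4 and 50.7 RPM in HC11 and 0 in each BC44 library. Both were picked after their values were seen.

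Ends read in several libraries lay on longer DpnII fragments, a property that the choice by distance did not use. Ends read in 3 or more libraries (563) lay on fragments with a median of 585 bp, against 388 bp for ends read in 1 or 2 and 362 bp for ends never read. The order was the same in the downstream mirror, with 652, 452.5 and 393 bp. None of the 53 ends on fragments under 100 bp was read in 3 or more libraries, against 50.7% of those on fragments of 800 bp or more. All listed ends had an NlaIII site within their fragment. Over the 30 windows, the log2 of the mean level correlated at r = -0.705 with distance and r = 0.514 with GC content, as a description of windows that share libraries and neighbours. Profiles of 2 libraries over the 30 windows correlated at r = 0.156 to 0.609 within a line (mean 0.412) and 0.0899 to 0.610 between lines (mean 0.364).

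No stretch of the region was called as a contact above the distance background. The procedure, rewritten after peakC and extended to 1 Mb on each side, compared running means over 21 ends with a background that falls with distance. It called 0 of 1638 tested ends in BC44 and 0 of 1638 in HC11, and 0% of 5291 ends over both sides in each line. At an unadjusted rank-product p under 0.05 there were 118 ends in BC44 (7.20%) and 132 in HC11 (8.06%), while over both sides 5.52% and 6.31% of ends reached it. With the difference of signal and background ranked in place of their ratio, the order turned, with 52 ends (3.17%) in BC44 and 58 (3.54%) in HC11 against 6.65% and 6.37% over both sides. The smallest adjusted p of the region was 0.286 in BC44 and 0.501 in HC11 by the rank product over 3 libraries. Neighbouring ends share reads through the running mean and are not independent.

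The 3 stretches with the highest median ratio to background were then taken in each line. In BC44 the first was around 136024051, 808 kb upstream and between 6030445D17Rik and Luzp1, with ratios of 2.78, 0.911 and 3.14 in BC44 and 1.08, 1.34 and 1.09 in HC11. The second, around 135919123 and 913 kb upstream between genes, had 1.51, 2.50 and 2.36 in BC44 and 0.651, 0.454 and 0.671 in HC11, without overlap. The third was around 135897475, 935 kb upstream. Its centre lies just past the 3' end of Hnrnpr in the annotation used, and the stretch begins inside that gene. This stretch had 2.30, 1.24 and 2.38 in BC44 and 1.26, 1.42 and 2.96 in HC11. It overlaps the first stretch of HC11, so both lines had their high ratios there in part of their libraries. That first stretch of HC11, around 135899521 and 933 kb upstream, had 1.09, 2.86 and 2.82 in HC11 and 1.84, 1.01 and 2.38 in BC44. The second of HC11, around 135875060 and 957 kb upstream inside Hnrnpr, had 0.683, 2.49 and 2.57 in HC11 and 1.67, 1.5999 and 1.06 in BC44, with overlap. The third, around 136110576, where Luzp1 and Kdm1a overlap, had 2.42, 2.10 and 1.24 in HC11 and 1.11, 1.18 and 0.726 in BC44, without overlap. Each stretch was chosen as high in its own line, which in itself favours separation of the lines. Whether the lines overlapped in a stretch is therefore not read as a result, and no test was made on these stretches.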

How the data were processed

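The deposited files hold whole-number read counts per DpnII fragment end. Mapping to mm9 was done by the authors with the 4C pipeline of the de Wit laboratory at its defaults, per the series' design text. Read 1 alone was used, per the labels' protocols. Counts were used as deposited. PCR copies were not removed, which can inflate single ends. All 369081 listed positions were the first or last base of a GATC site in the mm9 sequence of chromosome 4. Genes and their types came from GENCODE M1 (mm9), and RefSeq (GRCm38) was used only for names and to state its type for Lactbl1.

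RPM was computed over reads more than 2 kb from the viewpoint. Windows (20 kb, counted from the viewpoint end) and coding genes were tested over the chromosome with edgeR 4.0.16 (glmQLFit, glmQLFTest, TMM, line as the only term, at least 10 reads in at least 3 libraries, ends within 10 kb left out, Benjamini-Hochberg adjustment), with DESeq2 1.42.0 as an alternative. Standard errors were derived from the F statistic. Shares were compared by two-sided exact permutation over 20 relabellings, and within-library ratios by exact sign flips. The contact procedure used isotonic backgrounds per side, a pseudocount equal to the mean over libraries of a low percentile (the 5th) of captured counts, a rank product of signal over background, an adjusted p under 0.1 and a median ratio over the upper quartile plus 1 interquartile range (1.67 in BC44, 1.68 in HC11), for ends over 15 kb away. Alternatives covered denominators, captured ends in place of reads, scaling, filters, window sizes, left-out libraries and the replicate number as a block. The edgeR fit and the contact procedure were run on simulated data, and their recovery is not given here. The share tests and DESeq2 were not run on simulated data. The members, measures and lists were chosen with earlier results of these data known. Genes and windows were named by level (the 4 highest, per listed end for genes) and by unadjusted p (the 3 lowest in each direction), and other named items were picked after their values were seen.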

Additional observations from a re-analysis of the deposited data

How the results depend on the processing

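Counts of windows, genes and contact regions past the thresholds stayed at 0 in the region under every alternative run. The higher share of reads in HC11 kept its direction under all alternatives and ranged from 2.39 to 2.94 points when 1 library was left out. Among upstream reads the difference ranged from 4.63 to 6.76 points when 1 library was left out. With 1 library left out, the captured share differed by -0.647 to 4.996 points and turned without BC44 replicate 3 (-0.647) and without HC11 replicate 1 (-0.496). The upstream share of both sides ran from -2.94 to 0.229 points and turned without HC11 replicate 2, and the share 400 to 600 kb upstream from 1.42 to 6.78 points. The log2 ratio of upstream to downstream was 1.21 to 1.30 and that of gene starts -0.58 to -0.32 with 1 library left out. With 5 libraries the exact p of both was 0.0625, the smallest possible. With replicates 2 and 3 alone the ratios were 1.18 and -0.53, where 4 libraries cannot go below 0.125. Dividing by the distance background gave -0.0925 for gene starts (exact p = 0.906) and turned the ratio inside genes to -0.0111, while captured ends gave 0.18 (exact p = 0.0313). With captured ends the fold changes of the windows 480 to 500 and 900 to 920 kb upstream and of Zfp46 turned to 0.0708, 0.0296 and 0.0904. The window 420 to 440 kb upstream ran from -0.0630 to 0.43 with 1 library left out and turned without BC44 replicate 2 (-0.0630) and without HC11 replicate 1 (-0.04). The cause of these reversals was not tested.

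Same-numbered libraries did not deviate together in window levels (r = 0.0688, -0.00331 and -0.0423 over 1001 windows), so the numbers were not taken as pairs. Replicate 1 of both lines did share a high percentage of reads at the viewpoint (40.5% and 44.3%). Whether same-numbered libraries were processed together was not tested. With the replicate number as a block the region's share differed by 2.59 points (2.56, 2.31 and 2.91 in the 3 numbers, exact sign-flip permutation p = 0.25, the smallest possible), and 0 windows and 0 genes of the region passed. Library size without TMM moved the median log2 fold change of all windows from -0.26 to -0.08 and that of the region from 0.18 to 0.35.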

Other observations

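Lactbl1, 638 to 654 kb upstream, is non-coding in the annotation used and protein-coding in RefSeq. It had 2011, 936 and 1616 RPM over 42 listed ends in BC44 and 2394, 949 and 841 RPM in HC11, with overlap. The transcript 9130020K20Rik had 18.3, 381 and 483 RPM over 8 ends in BC44 and 854, 0 and 984 RPM in HC11.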
